A study of Mus musculus with 2 samples.

Results

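The members are 10 genes that encode transcription factors known from the mural cells of blood vessels: Foxd1, Zic1, Foxf2, Nkx6-1, Tbx2, Prrx1, Foxs1, Tbx18, Tcf15 and Foxc1. They were taken by symbol from the 30905 genes of the matrices, by a rule that uses none of their measured values, though the list was drawn up with earlier results of these data known. Each symbol matched 1 row, and all 10 passed the filter on low counts, which left 12240 genes for the tests. Brain cells of male Dmp1Cre-COX8Dendra2 mice, 4 to 6 weeks old, were read in 2 droplet libraries called replicate 1 and replicate 2. In this strain, Cre recombinase under Dmp1 sequences switches on Dendra2, a green fluorescent protein sent to mitochondria by a COX8 targeting signal. Both libraries hold cells sorted for Dendra2, so they form 1 group with n = 2, and no Dendra2-negative cells were analysed here. The cells are those that carried the reporter in a Dmp1-Cre animal, and they need not represent all brain mural cells. The labels do not say whether the replicates came from separate animals or how many animals were pooled, so the spread between them may be technical.

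Mural cells wrap the endothelial tube: smooth muscle cells form contractile rings on arteries and arterioles, pericytes lie along capillaries, and cells with intermediate features sit where the one passes into the other. Forkhead (Fox), T-box (Tbx), homeobox (Nkx6-1, Prrx1), zinc finger (Zic1) and basic helix-loop-helix (Tcf15) proteins bind DNA through the domain that names each family. In the brain, Foxc1 and Foxf2 are known for roles in pericyte development and in the blood-brain barrier, and Tbx18 is widely used as a marker of mural cells.

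Classes were set per cell by thresholds on genes that are not members, each as UMIs (unique molecular identifiers, 1 per captured transcript) per 10000 UMIs of that cell. Smooth muscle cells had Acta2 of at least 80 and were divided at a Cnn1 of 3 into Cnn1-high (1168 and 126 cells in replicates 1 and 2) and Cnn1-low (2419 and 664). Transitional cells had Acta2 of 20 to 80 with Rgs5 of at least 80 (715 and 353), and pericytes had Vtn of at least 50 with Acta2 under 20 (2341 and 3289). Mural cells with at least 2 Ccl19 UMIs were set apart (92 and 10), and endothelial cells had Cldn5 of at least 5 with Vtn under 20 (248 and 1125). The libraries differed in depth, with a median of 6897 and 3016 UMIs in the 7697 and 6427 kept cells, and 14 kept barcodes occurred in both. They also differed in state: the summed level of 9 immediate-early genes in pericytes was 274 CPM (UMIs scaled to the same total for every class and library) in replicate 1 and 22024 CPM in replicate 2. Marker sums went with the labels in part by the class rule itself, since the marker lists hold genes of that rule. These are Vtn and Rgs5 for pericytes, Cldn5 for endothelium, and Acta2 and Cnn1 for smooth muscle. The 10 pericyte markers summed to 40158 and 32760 CPM in pericytes and 1851 and 1789 CPM in endothelium. Pericytes held 656 and 1279 CPM of 10 endothelial markers, against 21755 and 19137 CPM in endothelium, and other mural classes held less.

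In both libraries 7 members were low in endothelium, and Foxf2, Foxc1 and Tcf15 were shared with it. Summed over the 10 members, the level was 367 and 351 CPM in endothelium and between 1108 and 2578 CPM in the 4 larger mural classes. Foxs1, a forkhead factor, was at 278 and 215 CPM in pericytes and at 7.51 and 5.81 CPM in endothelium. Tbx18 was at 138 and 94.4 CPM in pericytes and at 4.04 and 3.01 CPM in endothelium. Endothelial values of Nkx6-1, Prrx1 and Tbx18 were 1.15 to 4.62 CPM, those of Foxd1, Zic1, Foxs1 and Tbx2 were 5.81 to 18.5 CPM, and those of Foxf2, Foxc1 and Tcf15 were 31.8 to 164 CPM. How much of the low values is free RNA was not tested.

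The average of the 4 mural classes was then compared with endothelium by edgeR's quasi-likelihood test on class sums, with the library as a block. Of the 10 members, 8 were higher in mural cells and 1, Foxf2, was lower, where 51.2% of all genes tested were called (25.2% higher and 26% lower). Log2 differences, as fitted on scaled counts, were 5.37 ± 0.37 (SE) for Foxs1 (adjusted p = 1.33e-08), 5.0 ± 0.30 for Tbx18 (3.57e-09) and 4.76 ± 0.28 for Nkx6-1 (2.35e-09). Prrx1, Foxd1, Tbx2 and Zic1 lay between 4.19 and 4.59. Foxc1 was higher by 0.67 ± 0.23 (adjusted p = 0.0252), a call lost with DESeq2, without the library block and with counts scaled by library totals only. The difference for Foxf2 was -1.50 ± 0.14 (adjusted p = 5.10e-07). Tcf15 did not pass, at 0.54 ± 0.22 (adjusted p = 0.0565), though it did with no filter on low counts, with stricter classes and without mural barcodes with Cldn5.

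**Figure D1:**
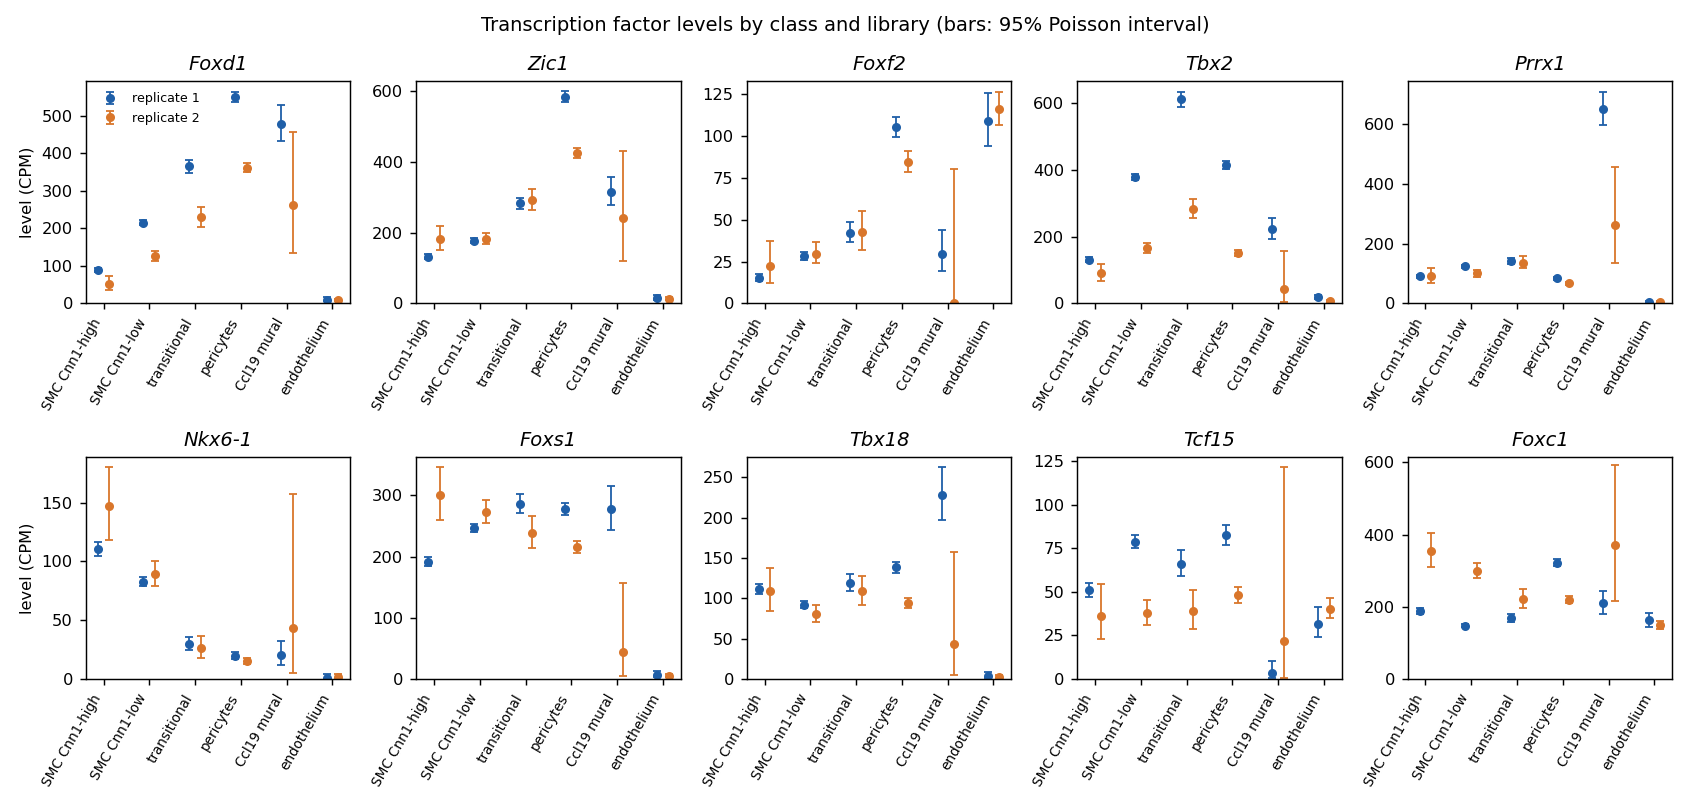
Level of each member in CPM (vertical axis, linear, from 0) in 6 cell classes (horizontal axis), with replicate 1 in blue, replicate 2 in orange and bars for the 95% Poisson interval, which covers counting error only. Foxd1 and Zic1 were highest in pericytes, Nkx6-1 in Cnn1-high smooth muscle and Prrx1 in replicate 1 in Ccl19-positive cells (651 CPM), where the replicate 2 point rests on 10 cells.

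Smooth muscle and pericytes differed in 5 members. Foxd1, Zic1 and Foxf2 were lower in smooth muscle, and Nkx6-1 and Prrx1 were higher, where 44.7% of all genes were called in this comparison, 19.6% higher and 25.1% lower. The share for the members is thus close to that for all genes. Scaling matters here: TMM factors (edgeR's trimmed mean scaling) were 0.811 to 0.951 for smooth muscle sums and 0.984 to 1.20 for pericyte sums, so fitted differences lie above plain CPM ratios. With library totals as the only scale, the median difference of all genes moved from -0.10 to -0.45. The share of calls that were higher in smooth muscle moved from 43.8% to 21.1%, and the 5 members were called in the same directions.

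Foxd1 (GRCm38 chr13:98354242-98359305, plus strand), a forkhead factor known from stromal cells of the developing kidney, was highest in pericytes, at 550 CPM in replicate 1 and 362 CPM in replicate 2. It was at 366 and 229 CPM in transitional cells, 215 and 127 CPM in Cnn1-low and 88.0 and 52.1 CPM in Cnn1-high smooth muscle. The order of the classes was the same in both libraries, and only neighbouring pericytes and transitional cells overlapped in their library values. The log2 difference between smooth muscle and pericytes was -1.73 ± 0.14 (adjusted p = 1.09e-07).

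Zic1 (chr9:91358058-91365810, minus strand), a zinc finger factor known from neural development, followed the same order. Pericytes held 583 and 425 CPM, transitional cells 282 and 293 CPM, Cnn1-low smooth muscle 177 and 183 CPM and Cnn1-high smooth muscle 132 and 182 CPM. The 2 smooth muscle classes overlapped, and the other neighbours did not. The difference between smooth muscle and pericytes was -1.27 ± 0.16 (adjusted p = 1.21e-05). The annotated gene Zic4 overlaps Zic1 on the other strand, and since no source used here gives the strand setting of the counting, reads of the pair may be mixed.

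Foxf2 (chr13:31625816-31631403, plus strand) had its highest mural level in pericytes, 105 and 84.6 CPM, and an endothelial level of 109 and 116 CPM. Transitional cells held 42.3 and 42.5 CPM, Cnn1-low smooth muscle 28.1 and 29.7 CPM and Cnn1-high smooth muscle 15.3 and 22.1 CPM, and no neighbours in this order overlapped. The log2 difference between smooth muscle and pericytes was -1.78 ± 0.16 (adjusted p = 4.82e-07). Without mural barcodes that had Cldn5 of at least 5 per 10000, it was -1.75 ± 0.16. Foxf2 overlaps the annotated gene Gm27516 on the other strand.

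Promoters of the 3 genes that were lower in smooth muscle are printed here, with that of Prrx1, which was higher, for comparison. They are RefSeq sequences (GRCm38.p6) from 250 to 61 bases before the annotated start, 5′ to 3′ on the gene's strand. Capitals mark GC boxes (GGGCGG or its reverse CCGCCC) and CCAAT boxes (CCAAT or its reverse ATTGG).
Foxd1: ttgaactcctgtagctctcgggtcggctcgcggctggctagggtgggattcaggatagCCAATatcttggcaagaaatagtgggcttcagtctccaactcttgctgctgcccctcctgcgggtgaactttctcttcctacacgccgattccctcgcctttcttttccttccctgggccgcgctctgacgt
Zic1: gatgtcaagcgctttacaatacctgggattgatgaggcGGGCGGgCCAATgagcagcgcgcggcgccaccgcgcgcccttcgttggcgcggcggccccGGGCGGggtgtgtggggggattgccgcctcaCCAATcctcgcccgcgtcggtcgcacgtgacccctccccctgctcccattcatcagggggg
Foxf2: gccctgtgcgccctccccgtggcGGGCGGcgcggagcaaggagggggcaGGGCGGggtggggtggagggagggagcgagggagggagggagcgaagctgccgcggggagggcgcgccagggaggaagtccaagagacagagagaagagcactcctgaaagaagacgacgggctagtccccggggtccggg
Prrx1: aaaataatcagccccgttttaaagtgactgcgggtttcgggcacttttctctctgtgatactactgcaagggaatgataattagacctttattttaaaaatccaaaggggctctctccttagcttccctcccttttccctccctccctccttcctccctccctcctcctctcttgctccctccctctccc
These windows lie at chr13:98353995-98354184 (+ strand), chr9:91365829-91366018 (- strand), chr13:31625566-31625755 (+ strand) and chr1:163313711-163313900 (- strand). The Zic1 window holds 2 GC boxes and 2 CCAAT boxes, that of Foxf2 2 GC boxes, that of Foxd1 1 CCAAT box and that of Prrx1 neither. RefSeq windows were at hand for 7 members, of which that of Nkx6-1 lies inside its annotated gene and holds neither box. A GC box was in 3 and a CCAAT box in 4 of the 7, against 22.8% and 26.7% of 32851 windows of the same length. The forkhead motif TGTTTAC, searched on both strands, was in 0 of the 7 and in 2.49% of all windows. GC content was 56.8% for Foxd1, 70.5% for Zic1, 73.2% for Foxf2 and 48.9% for Prrx1, with a median of 51.6% over all windows.

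Nkx6-1 (chr5:101658139-101664996, minus strand), a homeobox factor known from pancreatic beta cells and motor neuron progenitors, ran the other way. It was at 110 and 147 CPM in Cnn1-high smooth muscle, 82.9 and 89.2 CPM in Cnn1-low smooth muscle, 29.9 and 26.1 CPM in transitional cells and 19.9 and 15 CPM in pericytes. No neighbours in this order overlapped, and the order was the same in both libraries. Smooth muscle was above pericytes by 2.89 ± 0.17 (adjusted p = 5.06e-09) and above transitional cells by 2.08 ± 0.18 (1.56e-06).

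Prrx1 (chr1:163245119-163313710, minus strand), a paired-related homeobox factor known from limb mesenchyme and fibroblasts, differed less across these classes. It was highest in transitional cells, at 141 and 136 CPM, with 124 and 100 CPM in Cnn1-low smooth muscle, 90.2 and 90.1 CPM in Cnn1-high smooth muscle and 83.3 and 67.3 CPM in pericytes. Smooth muscle was above pericytes by 0.73 ± 0.19 (adjusted p = 0.00629). Without the library block this call was lost (adjusted p = 0.0998), and with library totals only the difference was 0.40 (0.0492). Prrx1 overlaps Gm20471 on the other strand and Gm26523 and Gm37644 on its own.

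Transitional cells did not lie midway for every member. Against pericytes, 3 members were higher in transitional cells (Prrx1, Tbx2 and Nkx6-1) and 3 were lower (Foxf2, Zic1 and Foxd1), where 16.5% of all genes were called (8.46% higher and 7.99% lower). The differences were 0.99 ± 0.22 for Prrx1 (adjusted p = 0.00524), 0.81 ± 0.20 for Nkx6-1 (0.0106), -1.06 ± 0.19 for Foxf2 (0.00122), -0.70 ± 0.19 for Zic1 (0.0181) and -0.52 ± 0.16 for Foxd1 (0.0366). The Nkx6-1 call was lost with DESeq2 and that of Foxd1 with low-Fos cells only. Against transitional cells, smooth muscle was higher in Nkx6-1 and lower in Foxd1, Tbx2, Foxf2 and Zic1, where 17.9% of all genes were called (8.02% higher and 9.86% lower). The difference was -1.21 ± 0.14 for Foxd1 (adjusted p = 2.56e-05), -0.72 ± 0.19 for Foxf2 (0.0145) and -0.57 ± 0.16 for Zic1 (0.0246), the last being lost with low-Fos cells only. These comparisons share the pericyte and transitional sums with the one above and are not independent of it. The fit without the library block called none of the 10 members between transitional cells and pericytes, and 2 (Nkx6-1 and Foxd1) between smooth muscle and transitional cells.

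Tbx2 (chr11:85832551-85841948, plus strand), a T-box repressor known from heart development, was highest in transitional cells in both libraries. It was at 612 and 283 CPM there, 414 and 151 CPM in pericytes, 378 and 165 CPM in Cnn1-low smooth muscle and 131 and 90.1 CPM in Cnn1-high smooth muscle. Over the 5 larger classes the libraries differed by 1.46 to 2.75 times, replicate 1 being higher, so class values overlapped between libraries while the place of the peak did not change. Transitional cells were above pericytes by 0.83 ± 0.19 (adjusted p = 0.00650), and the difference between smooth muscle and transitional cells was -1.15 ± 0.17 (1.85e-04). Smooth muscle and pericytes differed by -0.31 ± 0.17, which did not pass (adjusted p = 0.143), whereas it passed with library totals only (-0.65, 0.00381), with stricter classes and with low-Fos cells only.

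The pericyte, transitional and smooth muscle classes were then cut into finer bins of Acta2, which show the same cells in more detail. From cells with Acta2 under 5 per 10000 to those at 160 to 320, Foxd1 went from 548 to 127 CPM in replicate 1 and from 360.0 to 75.1 CPM in replicate 2. Nkx6-1 went from 18.7 to 99.9 CPM and from 15 to 131 CPM over the same bins. Tbx2 was highest at an Acta2 of 20 to 40 in both libraries, at 664 and 308 CPM. Only cells at 20 to 80 had been limited to an Rgs5 of at least 80 by the class rule. Rgs5 was also highest at 20 to 40, at 18123 and 16051 CPM. What this selection adds to the peak of Tbx2 was not tested. Prrx1 was highest at 20 to 40 in replicate 1 (149 CPM) and at 40 to 80 in replicate 2 (151 CPM). The bins hold cells of 1 library each, so their spread over animals is unknown and no test was made.

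**Figure D2:**
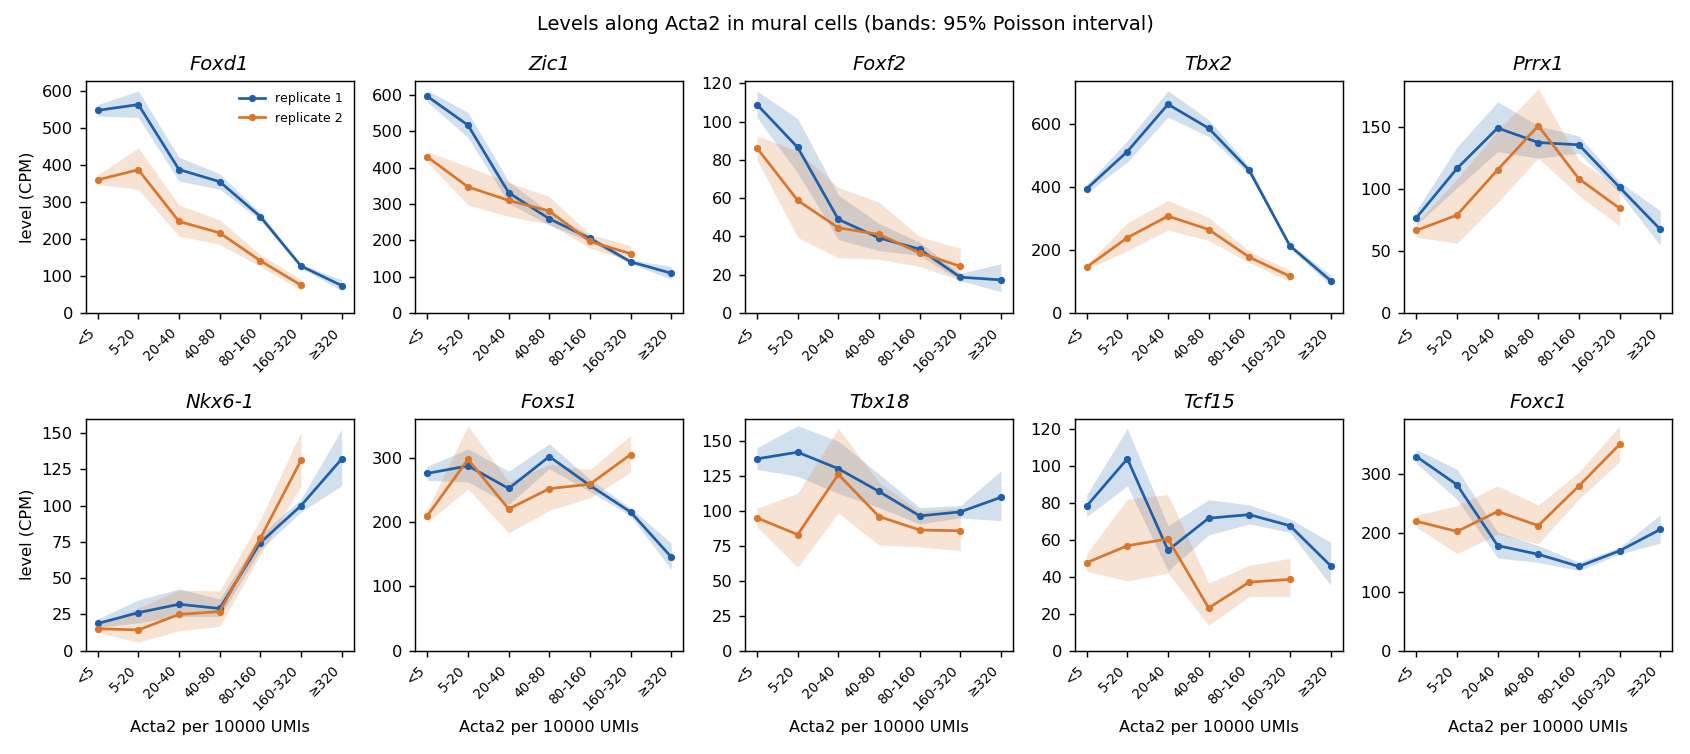
Level of each member (CPM, vertical axis, linear) in mural cells binned by Acta2 per 10000 UMIs (horizontal axis, unequal bins), replicate 1 in blue and replicate 2 in orange, with bands for the 95% Poisson interval. Zic1 and Foxf2 go down from the first bin and Foxd1 from the second, Nkx6-1 goes up above 80, while Tbx2 is highest at 20 to 40 in both libraries. Only the bins from 20 to 80 were limited to cells with Rgs5 of at least 80. Bins with fewer than 10 cells are left out, which removes the last bin of replicate 2.

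Foxs1, Tbx18, Tcf15 and Foxc1 did not differ between smooth muscle and pericytes beyond the spread of the fit. Foxs1 (chr2:152931898-152933208, minus strand) was at 192 to 287 CPM over the mural classes of replicate 1 and at 215 to 300 CPM over those of replicate 2, with a difference of 0.35 ± 0.24 (adjusted p = 0.263). Its order differed between libraries, with transitional cells highest in replicate 1 and Cnn1-high smooth muscle highest in replicate 2. Tbx18 (chr9:87702800-87731260, minus strand) was at 91.9 to 138 CPM and 81.1 to 109 CPM, with a difference of 0.08 ± 0.18 (adjusted p = 0.763). Tbx18 turned to -0.26 with library totals only, which did not pass either. It overlaps D030062O11Rik on the other strand.

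Tcf15 (chr2:152143561-152149097, plus strand), known as paraxis from the somites, was at 50.9 to 82.4 CPM in the mural classes of replicate 1 and at 36.3 to 48.1 CPM in those of replicate 2. Its endothelial level was 31.8 and 40.4 CPM, and all neighbouring classes, the mural ones included, overlapped in their library values. The difference between smooth muscle and pericytes was -0.02 ± 0.21 (adjusted p = 0.960).

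Foxc1 (chr13:31806633-31812476, plus strand) starts 175229 bases after the end of Foxf2 on the same chromosome and strand, and its levels did not follow those of Foxf2. In replicate 1 it was 323 CPM in pericytes, 187 CPM in Cnn1-high and 148 CPM in Cnn1-low smooth muscle. In replicate 2 it was 219 CPM in pericytes, 356 CPM in Cnn1-high and 300 CPM in Cnn1-low smooth muscle. The libraries thus gave opposite directions, -0.56 and 0.78 on the log2 scale, and the joint difference of 0.09 ± 0.24 (adjusted p = 0.801) describes neither. Endothelium held 164 and 150 CPM.

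**Figure D3:**
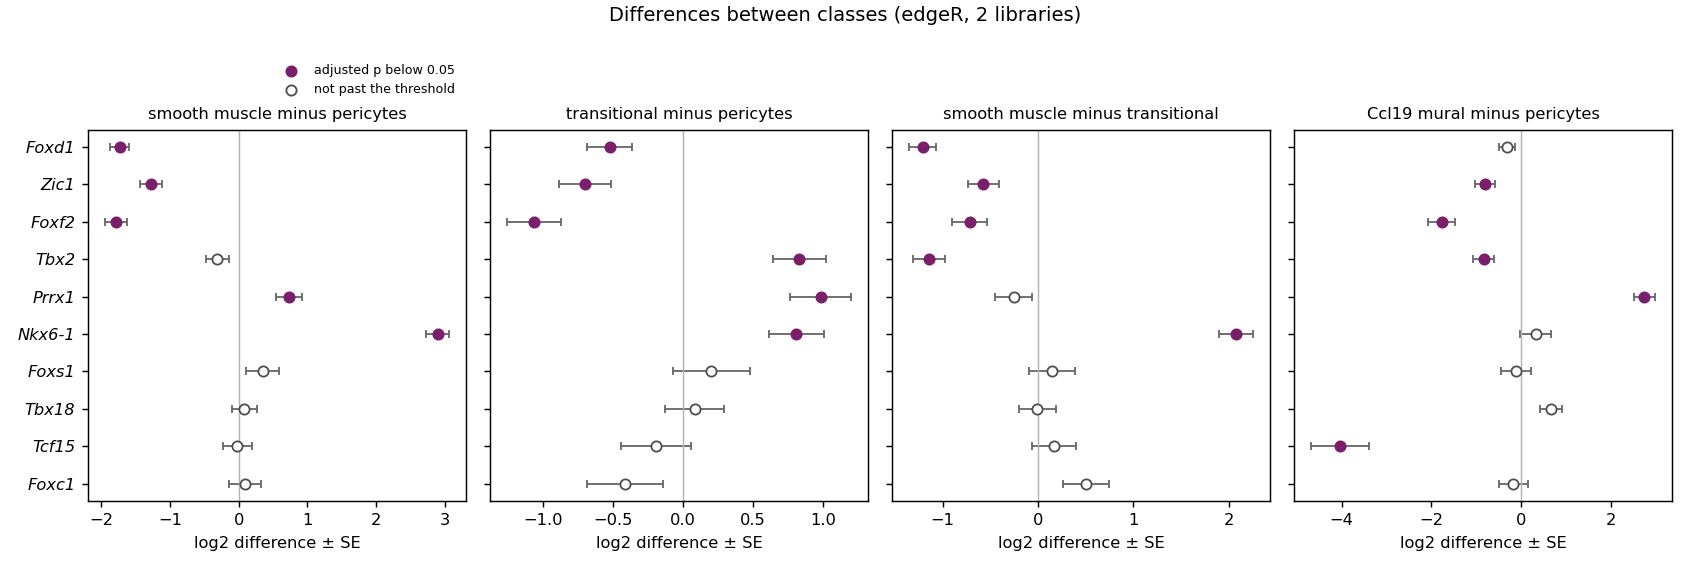
Log2 differences of the 10 members in 4 comparisons (horizontal axes, with their own scales), as points with bars for the standard error. It comes from the edgeR fit to all 12 class sums of the 2 libraries, which share the estimate of spread. Filled points passed an adjusted p of 0.05 and open points did not. Nkx6-1 lies farthest to the right for smooth muscle against pericytes (2.89), and Prrx1 (2.76) and Tcf15 (-4.03) are at the ends for Ccl19-positive cells.

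Within smooth muscle, Cnn1-high cells were lower than Cnn1-low cells in Foxd1 and Tbx2, where 5.51% of all genes were called (2.17% higher and 3.34% lower). The log2 differences were -1.18 ± 0.18 for Foxd1 (adjusted p = 9.72e-04) and -1.19 ± 0.21 for Tbx2 (0.00297). Neither was called without the library block, and with stricter classes (Acta2 of at least 160 for smooth muscle) Foxd1 alone was called. Nkx6-1 was 0.61 ± 0.17 higher and missed the threshold (adjusted p = 0.0547), which it passed with RLE scaling, with no filter and without mural barcodes with Cldn5. Splitting smooth muscle by Rgs5 in place of Cnn1 gave related values, with no test. Smooth muscle cells with Rgs5 of at least 80 held 282 and 201 CPM of Foxd1, against 136 and 93.7 CPM below it. For Nkx6-1 the values were 56.5 and 56.9 CPM above and 103 and 109 CPM below. For Tbx2 they were 504 and 248 CPM above and 226 and 130.01 CPM below.

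Ccl19-positive mural cells were higher than pericytes in Prrx1 and lower in Tcf15, Foxf2, Tbx2 and Zic1, with replicate 2 resting on 10 cells and 45912 UMIs. Of the 92 cells of replicate 1, 53 met the pericyte rule and the others the transitional or smooth muscle rule. Those 53 cells held 345510 of the 842872 UMIs of the class. Foxf2 and Zic1 were lower in transitional and smooth muscle cells than in pericytes. What this mixture of origins adds to the differences was not tested, and among the members values by origin are given for Prrx1 only. Prrx1 was at 651 CPM (95% interval 598 to 708) in replicate 1 and 261 CPM (135 to 457) in replicate 2, against 83.3 and 67.3 CPM in pericytes. These are ratios of 7.82 (7.02 to 8.71) and 3.88 (2.00 to 6.84), and the groups did not overlap. The fitted log2 difference was 2.76 ± 0.24 (adjusted p = 5.38e-06), where 9.64% of all genes were called (5% higher and 4.64% lower). Within replicate 1, Prrx1 was at 544 CPM in the 53 Ccl19-positive cells of the pericyte rule, 860 CPM in the 24 of the transitional rule and 536 CPM in the 15 of the smooth muscle rule. It was thus high in Ccl19-positive cells of each origin.

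Tcf15 was lower in Ccl19-positive cells, with 3 UMIs (3.56 CPM, 0.734 to 10.4) in replicate 1 against 82.4 CPM in pericytes, a ratio of 0.0432 (0.00889 to 0.127). In replicate 2 there was 1 UMI, a ratio of 0.453 (0.0114 to 2.54), an interval that includes equal levels, so the difference rests on replicate 1. The fitted value was -4.03 ± 0.64 (adjusted p = 7.30e-04). Foxf2 was at 29.7 CPM in replicate 1 and had 0 UMIs in replicate 2, which allows up to 65.3 CPM, against 105 and 84.6 CPM in pericytes. Its fitted difference was -1.77 ± 0.31 (adjusted p = 0.00157), and its level in replicate 1 was like the 28.1 and 29.7 CPM of Cnn1-low smooth muscle. Tbx2 (-0.83 ± 0.24, adjusted p = 0.0419) and Zic1 (-0.80 ± 0.22, 0.0311) were also lower, and both calls were lost with DESeq2, with RLE scaling, without the library block and without the highest doublet scores. Foxd1 (-0.31 ± 0.18) and Tbx18 (0.67 ± 0.25) did not pass (adjusted p = 0.354 and 0.128).

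Fibroblast markers were measured beside these values because Prrx1 is also known from fibroblasts. The 8 markers summed to 1939 and 741 CPM in Ccl19-positive cells and to 654 and 702 CPM in pericytes. Of the 8, 6 and 4 were detected in Ccl19-positive cells and 8 and 7 in the deeper pericyte sums. At 50 CPM or more there were 4 and 3 in Ccl19-positive cells and 3 and 4 in pericytes. Col1a2, a collagen chain, was at 1186 and 501 CPM in Ccl19-positive cells and at 376 and 293 CPM in pericytes. Lum and Dpep1 were at 0 in Ccl19-positive cells of both libraries, and Pdgfra was at 1.19 and 0 CPM. Col1a1 was at 0 in replicate 2 only. A count of 0 allows up to 3.56 CPM in replicate 1 and 65.3 CPM in replicate 2. Dcn, Apod and Slc6a13 were detected in Ccl19-positive cells of both libraries and enter the sums without single values here. Pericyte markers summed to 22850 and 24242 CPM in Ccl19-positive cells and to 40158 and 32760 CPM in pericytes. The 8 smooth muscle markers summed to 16810 and 9039 CPM, against 3719 and 2924 CPM in pericytes. Cells of the transitional and smooth muscle rules, which require Acta2, are part of these sums. In Ccl19-positive cells of the pericyte rule alone (53 and 9 cells), smooth muscle markers summed to 5386 and 6142 CPM. Pericyte markers summed to 28876 and 25587 CPM there, and fibroblast markers to 1609 and 744 CPM. The part of these markers' cell types in the differences was not tested.

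Cells with no UMI of any member made up 0.0854% and 3.1% of pericytes and 19.4% and 33.9% of endothelial cells. To compare classes of unequal depth, shares of cells with a UMI were calculated for a thinning of each cell to 2000 UMIs, leaving out shallower cells. Foxd1 was expected in 64.7% and 48.5% of pericytes and in 15.4% and 9.54% of Cnn1-high smooth muscle cells, against 1.82% and 1.31% of endothelial cells. Unthinned, these shares were 85.6% and 55.5% of pericytes at medians of 4310 and 2501 UMIs, and 6.05% and 2.40% of endothelial cells at medians of 5985 and 3441 UMIs. Tbx2 was expected in 70.1% and 41.3% of transitional cells. Nkx6-1 was expected in 19.0% and 24.1% of Cnn1-high smooth muscle cells and in 3.79% and 2.97% of pericytes. A pericyte was expected to show 3.46 and 2.46 of the 10 members and an endothelial cell 0.622 and 0.608.

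**Figure D4:**
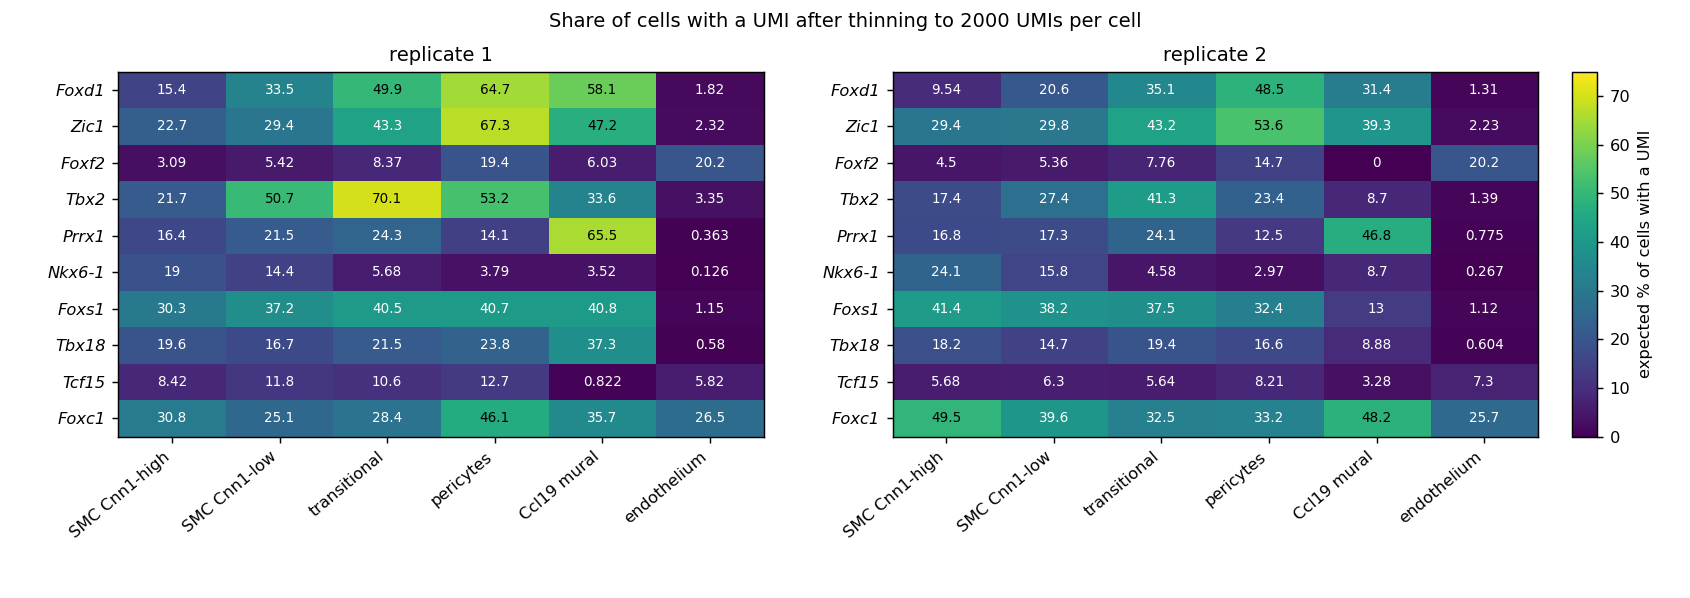
Expected share of cells with a UMI of each member (rows) after thinning to 2000 UMIs per cell, by class (columns), for replicate 1 (left) and replicate 2 (right), with the percentage in each field and as colour. Tbx2 reaches 70.1% in transitional cells of replicate 1, and Nkx6-1, Prrx1 and Tbx18 are at or under 0.775% in endothelium of both libraries.

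The libraries differed in some members as well as in immediate-early genes. Tbx2 was 2.75 times higher in pericytes of replicate 1 than of replicate 2, while Prrx1 differed by 1.00 to 1.24 times over the 5 larger classes. Replicate 2 held pericytes on both sides of a Fos level of 5 per 10000, 1204 cells below and 2085 at or above it, whereas replicate 1 had 1 pericyte at or above it. Within replicate 2, Tbx2 was 195 CPM (95% interval 179 to 212) in pericytes with low Fos and 129 CPM (120 to 139) in those with high Fos. Tcf15 was at 28.8 CPM (22.9 to 35.6) and 57.6 CPM (51.7 to 64.1), and Foxs1 at 161 CPM (146 to 176) and 242 CPM (229 to 255). Foxd1 was at 349 and 368 CPM and Foxf2 at 85.9 and 84.0 CPM, with overlapping intervals. Intervals cover counting error in 1 library, so these are descriptions with no test. In low-Fos pericytes of replicate 2, Tbx2 was under the 414 CPM of replicate 1 and Tcf15 under its 82.4 CPM. The part of the immediate-early state in the difference between libraries was not tested.

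Other regulators were read from lists of related genes. List counts of the main fit below stand beside 44.7% of all genes called between smooth muscle and pericytes, 19.6% higher and 25.1% lower. Counts without mural barcodes with Cldn5 come from another fit, whose share of all genes called is not given here. Of the calls in that fit, 46.9% were higher in smooth muscle, against 43.8% in the main fit. Of 48 tested regulators of mural and smooth muscle cells outside the members, 18 were higher and 13 lower in smooth muscle than in pericytes. Their median was -0.04, against -0.10 for all genes. These counts were 18 and 11 without mural barcodes with Cldn5. Myocd, the coactivator of serum response factor that drives contractile genes, was at 87.1 and 94.8 CPM in Cnn1-high smooth muscle and at 2.25 and 0.902 CPM in pericytes, a difference of 6.04 ± 0.24 (adjusted p = 2.21e-10). Transitional cells already held 43.6 and 47.7 CPM of it. Hic1, a zinc finger repressor, ran the other way, at 213 and 140 CPM in pericytes and 41.7 and 32.03 CPM in transitional cells. It was at 8.15 and 8.11 CPM in Cnn1-low and 3.09 and 1.58 CPM in Cnn1-high smooth muscle, the last value being 1 UMI. The difference between both smooth muscle classes and pericytes was -4.88 ± 0.21.

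Among 17 tested forkhead relatives, 5 were higher and 4 lower in smooth muscle, and 6 and 2 without mural barcodes with Cldn5. Foxc2, the close relative of Foxc1, was at 28.6 and 42.7 CPM in Cnn1-high smooth muscle and at 4.22 and 3.61 CPM in pericytes (3.39 ± 0.26, adjusted p = 8.25e-08). Foxc2 thus separated smooth muscle from pericytes in both libraries, which Foxc1 did not. Foxf1, the close relative of Foxf2, was at 0.943 and 68.0 CPM in Cnn1-high smooth muscle and at 43.3 and 37.4 CPM in endothelium, so its mural level differed widely between libraries. Its call between smooth muscle and pericytes (3.12 ± 1.05, adjusted p = 0.0261) rests on replicate 2, with 0.73 in replicate 1 and 3.85 in replicate 2. Foxq1 was at 520 and 629 CPM in endothelium and at 26.0 and 53.1 CPM in pericytes, which held endothelial markers as given above.

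Of 7 tested T-box relatives, 1 was higher and 4 lower in smooth muscle than in pericytes. The counts were 1 and 3 without mural barcodes with Cldn5. Tbx15 was at 25.2 and 22.1 CPM in Cnn1-high smooth muscle, 24.3 and 16.6 CPM in Cnn1-low and 20.7 and 15 CPM in pericytes. The difference was 0.61 ± 0.18 (adjusted p = 0.0121), a call lost without the library block and with library totals only. Tbx1 was at 43.9 and 54.2 CPM in endothelium and at 1.87 and 2.37 CPM in pericytes. Tbx4 was at 15.01 and 10.75 CPM in endothelium and at 0.375 and 0.564 CPM in pericytes.

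Of 15 tested homeobox, helix-loop-helix and Zic relatives, 4 were higher and 6 lower in smooth muscle, and 4 and 5 without mural barcodes with Cldn5. Alx1, an aristaless-like homeobox gene, was at 48.5 and 30.0 CPM in Cnn1-high and 19.25 and 19.6 CPM in Cnn1-low smooth muscle. Pericytes held 2.34 and 2.59 CPM of it (3.86 ± 0.29). Prrx2, the paralogue of Prrx1, was at 8.81 and 5.18 CPM in pericytes and at 0.0857 and 0.241 CPM in the smooth muscle classes of replicate 1. It had 0 UMIs in those of replicate 2, which allows up to 4.74 CPM in Cnn1-high and 1.01 CPM in Cnn1-low cells. Msc, a helix-loop-helix gene, was at 20.05 and 18.4 CPM in pericytes and at 0.343 and 0.241 CPM in the smooth muscle classes of replicate 1. In replicate 2 it had 0 UMIs in Cnn1-high cells, which allows up to 4.74 CPM, and 2 UMIs in Cnn1-low cells. In Ccl19-positive cells, the homeobox gene Alx4 was at 53.4 and 21.8 CPM against 1.69 and 0.676 CPM in pericytes (5.08 ± 0.37, adjusted p = 2.28e-06), the second value being 1 UMI.

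Of 28 tested endothelial regulators, 3 were higher and 17 lower in smooth muscle than in pericytes. Endothelial markers, of which Erg is also in this list, summed to between 36.9 and 103 CPM in smooth muscle and to 656 and 1279 CPM in pericytes. The part of endothelial RNA in this count was not tested. Without mural barcodes with Cldn5, 9 of the 28 were lower. For the members in the same setting, the same 5 were called between smooth muscle and pericytes.

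The genes most like each member in level were found over the 12 class sums among 8680 genes, as a description with no p, since sums share libraries and depth. The sums include endothelium, where most members were low, so a high r can come from that gap and not from the order of mural classes. They also include the 10 Ccl19-positive cells of replicate 2, where Foxf2 was at 0 CPM, which weighs on its matches. Foxd1 was most like Pdgfrb, the receptor through which mural cells respond to endothelial PDGF-B (Pearson r = 0.99), followed by Ehd3 and Adap2. Nkx6-1 was most like Chchd10, Mylk and Sun2 (r = 0.98 each). Foxs1 was most like Arhgef25, Hey2 and C1qtnf12, and Tbx18 shared Arhgef25 and C1qtnf12 with it. Prrx1 was most like Fstl1 (r = 0.98), Pdha1 and Col1a2 (0.97 each), and Tbx2 like Prkar1b, Plekhg2 and Lzts2 (0.97 each). Zic1 was most like Mxra8, Gpx8 and Dock10, and Foxf2 like Hacd3, Rbm25 and Avl9. Foxc1 (highest r = 0.88) and Tcf15 (0.84) had the weakest best matches. Among the members themselves, the highest r was 0.97 between Foxs1 and Tbx18, followed by 0.96 between Foxd1 and Zic1.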

How the data were processed

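Unnormalized UMI counts of genes in barcodes were deposited, and Cell Ranger 3.1.0 wrote them, per the file headers. CASAVA 1.8 and Seurat 2.3.4 are listed in the submitters' processing notes without a role. The genome build and strand setting are not given in the sources used here. Gene positions came from GENCODE M21 (GRCm38) by gene identifier, and 30766 of 30905 identifiers matched.

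Barcodes were kept if they had 500 genes or more, 1000 UMIs or more and mitochondrial UMIs under 20%, 7697 of 8236 in replicate 1 and 6427 of 7077 in replicate 2. The matrices held 59026190 and 26218090 UMIs. Of the kept barcodes, 714 and 860 were in no class, and 12 and 12 that met a mural and the endothelial rule were left out of both. Scrublet (scanpy 1.11.5) called 202 doublets (2.62%) in replicate 1 and 1 (0.0156%) in replicate 2. The caller did not work in replicate 2, and no doublets were removed. Rows with the same symbol were added for Ccl19.

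Summing counts over the cells of a class in a library gave 12 sums. These were fitted in edgeR 4.0.16 by quasi-likelihood, after TMM scaling and the filterByExpr filter, with the library as a block and 5 residual degrees of freedom. The average of a group of classes gave each class the same weight. Adjusted p-values are Benjamini-Hochberg values over 12240 genes, with a threshold of 0.05. The standard error (SE) was taken as the log2 difference over the root of F. The 6 genes that define the classes were left out of the counts of calls. Classes of a library come from the same preparation, and the deviations of the libraries correlated across genes at 0.207 to 0.676 (median 0.446) in all 15 pairs of classes, so the library numbers pair the sums. The fit was also run on simulated counts in which the library effect was the same in every class. That run does not test library effects that differ by class, such as that of Foxc1.

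Levels are CPM with exact 95% Poisson intervals, and ratios to pericytes have exact conditional intervals. PCR duplicates are merged by UMI, and intervals and limits for a count of 0 (3 counts) cover counting error only. The members and lists were chosen with earlier results of these data known. All members are described. From each other list, up to 3 genes per direction and comparison with the largest difference past the threshold, of the same sign in both libraries, could be named. Fibroblast markers are given as levels outside this rule, chosen after their values were seen. Alternatives were DESeq2 1.42.0, RLE scaling, library totals only (added after the data were seen), no filter, no block, other class and barcode rules, and each library alone. A further comparison class is not reported here.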

Additional observations from a re-analysis of the deposited data

How the results depend on the processing

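The fit without the replicate block changed the counts most. It called 2995 genes in place of 5471 between smooth muscle and pericytes, 34 in place of 674 between Cnn1-high and Cnn1-low smooth muscle, 815 in place of 2014 between transitional cells and pericytes, 828 in place of 2189 between smooth muscle and transitional cells, and 572 in place of 1180 between Ccl19-positive cells and pericytes. Members called without this pairing were 0, 0, 2 and 3 in the last 4 of these. Between Cnn1-high and Cnn1-low smooth muscle, stricter classes called 189 genes and 1 member, and no filter on low counts called 4 members. Between Ccl19-positive cells and pericytes, 3 members were called with DESeq2, with RLE scaling and without the highest doublet scores, and the share of calls that were higher was 51.9% in the main fit and 66.6% with DESeq2. With library totals only, that share went from 51.4% to 41.4% for transitional cells against pericytes and from 44.9% to 20.97% for smooth muscle against transitional cells, the median of all genes moving from -0.02 to -0.27.

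Members that changed direction had not passed the threshold. Against pericytes, smooth muscle values were -0.012 for Foxc1, -0.0090 for Tbx18 and 0.075 for Tcf15 with low-Fos cells only, -0.25 for Foxc1 and -0.26 for Tbx18 with library totals only, and 0.060 and 0.014 for Tcf15 with stricter classes and without the highest doublet scores. Transitional cells against pericytes gave -0.021 for Tbx18 with library totals only. Smooth muscle against transitional cells gave -0.079 for Foxs1 and -0.077 for Tcf15 with library totals only, and for Tbx18 0.0063 with barcodes of both rules kept, 0.017 with at least 2000 UMIs, 0.029 with no filter and 0.021 with stricter classes. Cnn1-high against Cnn1-low gave 0.040 for Foxs1 with DESeq2 and 0.018 for Zic1 with stricter classes. Without mural barcodes with Cldn5, the endothelial genes Foxl2 (1.32 for smooth muscle and 0.62 for transitional cells against pericytes) and Sox18 (1.00 for Ccl19-positive cells) turned, each having been called lower. These values rest on few counts. In the main sums, Sox18 had 1 and 0 UMIs in Ccl19-positive cells, and Foxl2 had at most 8 in any smooth muscle or transitional sum. The cause was not tested. Foxd1, Foxf2, Zic1 and Nkx6-1 were called between smooth muscle and pericytes in all 14 settings fitted, and Prrx1, Tcf15 and Foxf2 between Ccl19-positive cells and pericytes in all 10, in 1 of which the Ccl19-positive cells of the pericyte rule were also counted among pericytes. The Ccl19 class could not be fitted with at least 2000 UMIs, stricter classes or low Fos, where it had under 10 cells in replicate 2. Each library alone gives values with no test.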
